A study of Brassica rapa with 30 samples.

Results

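In whole plants of 2 Brassica rapa cultivars, 30 genes stayed under a set rise after 1 day of cold, were at least 2-fold up on the scale of CPM plus 1 (CPM is a gene's counts scaled to the size of the library) after 20 and 40 days of cold, and stayed up after 10 days back in warmth. They were chosen from 41018 genes with Bra identifiers among the 42186 genes of the count tables. The choice used R, the log2 ratio of a treatment's mean CPM plus 1 to the mean CPM plus 1 of plants that had no cold. In both cultivars R had to reach 1 at 20 days of cold, at 40 days and after the warm period, and to lie below 0.7 at 1 day. A set of 6 identifiers was left out beforehand, and none of them met these thresholds. Every change against plants without cold is therefore a description of the selected genes, and no test is read from it.

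Prolonged cold, called vernalization, lets many Brassica plants flower once they are back in warmth. In Arabidopsis the factor VIN3 accumulates slowly during weeks of cold and, with the Polycomb complex, silences the floral repressor FLC. That silencing outlasts the cold, and the floral integrators FT and SOC1 then become active. Whether a transcript raised in the cold holds its level in warmth is therefore a usual question in vernalization studies. None of the 30 identifiers was paired with a gene name by the reference table used here, so the genes are given by identifier, and no role can be stated for them.

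The samples were whole plants of LP08, labelled early flowering, and of Chiifu, labelled late flowering. All were raised for 3 weeks in a greenhouse and then assigned to one of these treatments: none (NV), cold for 1 day (V1), for 20 days (V20), for 40 days (V40), or the 40-day cold followed by 10 days in warmth (V40T10). Each of the 10 groups had 3 libraries. Uncooled plants of the later ages were not analysed here, so cold and plant age cannot be told apart. In RNA from whole plants, more cells of a type and more RNA per cell cannot be told apart either. Libraries held 16926920 to 26595834 counts on genes, and 3 counts, the limit that a count of 0 allows, corresponded to 0.0964 to 0.209 CPM, counting error only. Nothing in the labels states whether replicate libraries were made from different plants, so p-values measure the spread between libraries, which may be technical. Chiifu NV stood apart by its spread: its libraries deviated from their group mean with an SD over genes of 0.56 to 0.71 on the log2 scale, against 0.19 to 0.38 in the other groups.

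Requiring R of at least 1 at V20 in both cultivars left 850 genes, adding V40 left 563, adding V40T10 left 100, and the limit at V1 left 30. All 30 passed the filter on low counts, and 28712 genes in all were tested. Over the 30 genes, median R in LP08 was 0.19 at V1, 1.64 at V20, 1.87 at V40 and 2.15 at V40T10. In Chiifu median R was 0.02, 1.44, 1.64 and 2.08 at the same times. Over all Bra genes tested these medians lay between -0.04 and 0.02. In LP08 every V20, V40 and V40T10 library was above every NV library for 28 of the 30 genes, where 8.09% of all Bra genes tested had this order. In Chiifu it held for 29 genes, against 7.6% of all. The rule asked for means at least 2-fold up, which makes this order likely, so nothing is read from these counts. The exceptions were Bra028132 and Bra040759 in LP08 and Bra022957 in Chiifu, each with a single V20 library at the NV level.

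The range among the 30 was wide. In LP08 R reached 0.69 at most at V1 and ran from 1.05 to 4.38 at V20, 1.08 to 3.62 at V40 and 1.07 to 4.47 at V40T10. In Chiifu it reached 0.68 at V1 and ran from 1.03 to 3.15, 1.23 to 4.62 and 1.10 to 4.47 at those times. The lower ends from V20 on are set by the limit of 1.

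**Figure D1:**
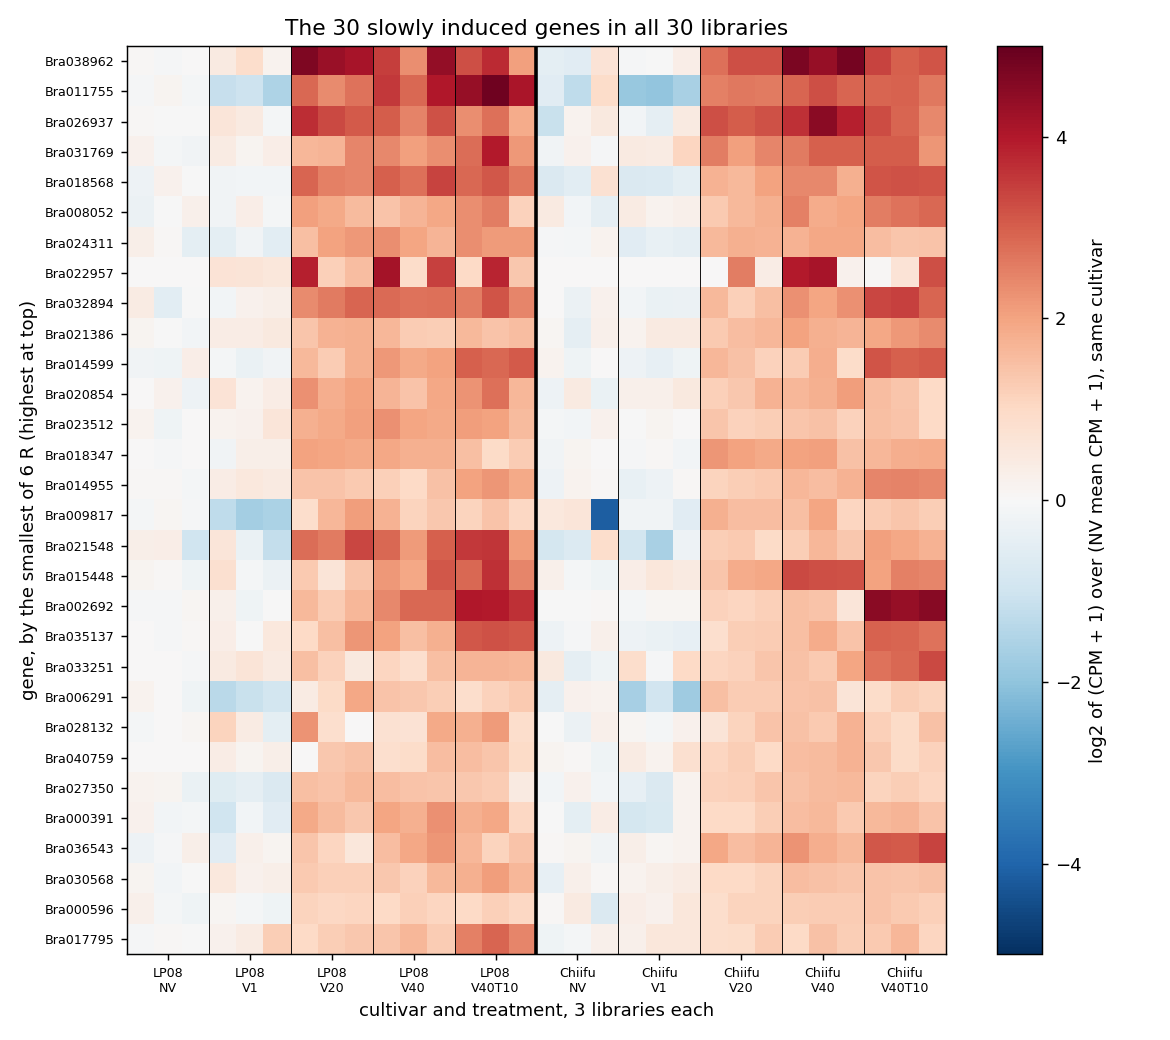
Level of each of the 30 genes in each of the 30 libraries as log2 of CPM plus 1 over the NV mean CPM plus 1 of the same cultivar (colour), with genes down the page and 3 libraries per group across. The V20, V40 and V40T10 columns are red in both cultivars because the genes were chosen for it. In the row of Bra022957 the groups from V20 on mix high and pale cells, and in most of these groups 1 library is the high one. The dark blue cell of Bra009817 in Chiifu NV is a single library that differs from the rest of its group.

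The highest smallest R among the 30 was that of Bra038962. In LP08 it stood at 0.418, 0.315 and 0.393 CPM at NV, 0.885, 1.51 and 0.572 at V1, 33.6, 26.1 and 23.1 at V20, 14.1, 5.89 and 27.9 at V40 and 11.7, 17.5 and 4.66 at V40T10. In Chiifu the libraries gave 0.767, 0.645 and 2.98 CPM at NV, 1.36, 1.45 and 2.13 at V1, 15.6, 22.1 and 22.3 at V20, 63.1, 48.8 and 66.2 at V40 and 24.5, 18.6 and 20.6 at V40T10. In LP08 all V1 libraries were already above all NV libraries, with a mean 2.64 times that at NV, while in Chiifu they overlapped. No library of V20 or later reached down to the NV range, and the LP08 libraries at V40 and V40T10 were widely scattered. Mean levels at V20, V40 and V40T10 were 73.5, 42.5 and 30.1 times the NV mean in LP08, and 13.7, 40.6 and 14.5 times in Chiifu. Without Chiifu NV replicate 3 the Chiifu ratios were 28.3, 84.1 and 30.1, and without LP08 V40 replicate 3 the LP08 ratio at V40 was 26.6.

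Bra011755 combined a lower level on the first day with a high one later. Its LP08 libraries had 2.98, 3.62 and 2.85 CPM at NV and 0.885, 1.01 and 0.429 at V1, then 29.1, 20.6 and 26.3 at V20, 47.1, 29.7 and 65.9 at V40 and 83.4, 119 and 70.2 at V40T10. The Chiifu values were 3.59, 1.80 and 12.0 CPM at NV and 0.817, 0.726 and 1.21 at V1, then 38.2, 41.1 and 39.6 at V20, 50.5, 63.2 and 50.6 at V40 and 50.0, 51.7 and 41.2 at V40T10. Both cultivars were lowest at V1, where all libraries lay under those of NV, and the later levels were far above both. Mean levels at V1 were 0.246 times those at NV in LP08 and 0.159 times in Chiifu, or 0.340 times without Chiifu NV replicate 3.

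Bra006291 in both cultivars and Bra009817 in LP08, chosen after their values were seen, were also lower at V1. Bra006291 had 0.885, 1.23 and 1.52 CPM at V1 and 4.44, 3.88 and 3.15 at NV in LP08, and 1.23, 2.63 and 1.06 CPM at V1 and 4.17, 7.23 and 6.97 at NV in Chiifu. It later stayed between 5.40 and 18.9 CPM in all V20, V40 and V40T10 libraries. Bra009817 had 11.8, 8.42 and 9.39 CPM at V1 and 28.0, 32.3 and 28.8 at NV in LP08. In Chiifu it had 14.2, 14.4 and 10.7 CPM at V1 and 23.5, 25.1 and 0 at NV, so the libraries overlapped there. In all, the V1 mean lay below the NV mean for 11 of the 30 genes in LP08, for 13 in Chiifu and for 9 in both. No share over all genes is set beside these counts, but median R at V1 over all Bra genes tested was -0.01 in LP08 and -0.04 in Chiifu. The rule used R at V1, so nothing is read from the counts. It set no lower limit at V1, so a lower level was open to any of the 30 genes.

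Bra026937 was high by V20 in both cultivars. Its LP08 libraries held 4.76, 4.46 and 4.47 CPM at NV, 7.55, 6.62 and 4.19 at V1, 70.4, 54.1 and 45.5 at V20, 43.9, 30.1 and 49.9 at V40 and 27.0, 36.5 and 19.1 at V40T10. Those of Chiifu held 0.288, 2.16 and 2.85 CPM at NV, 1.54, 1.04 and 2.76 at V1, 25.1, 21.4 and 24.3 at V20, 33.7, 61.9 and 40.3 at V40 and 25.5, 19.8 and 13.6 at V40T10. The mean was highest at V20 in LP08 and at V40 in Chiifu, and no library from V20 on reached down to the NV range.

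Bra031769 was close to 0 at NV in both cultivars. Its LP08 libraries had 0.314, 0.0525 and 0 CPM at NV, 0.472, 0.224 and 0.429 at V1, 2.53, 2.68 and 5.17 at V20, 4.99, 3.60 and 4.60 at V40 and 6.68, 16.4 and 4.05 at V40T10. In Chiifu they had 0.0959, 0.460 and 0.190 CPM at NV, 0.726, 0.681 and 1.60 at V1, 6.28, 4.21 and 5.73 at V20, 6.56, 8.78 and 8.81 at V40 and 9.26, 9.06 and 4.83 at V40T10. All libraries from V20 on were above all those of NV and V1, and LP08 at V40T10 was the most scattered group. Only 7 counts over the 3 LP08 NV libraries and 15 over those of Chiifu stand behind the NV levels.

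Bra018568 was raised by V20 in both cultivars. It was at 23.8, 33.1 and 27.9 CPM at NV, 24.7, 25.6 and 25.3 at V1, 217, 165 and 159 at V20, 233, 196 and 303 at V40 and 214, 250.3 and 183 at V40T10 in LP08. Chiifu plants had 15.7, 17.9 and 46.0 CPM at NV, 15.7, 16.2 and 18.7 at V1, 90.1, 83.2 and 111 at V20, 144, 145 and 92.4 at V40 and 245, 249 and 245 at V40T10. The change from V20 to V40 had an edgeR adjusted p of 0.525 in LP08 and 0.651 in Chiifu. In LP08 the ranges of V40 and V40T10 overlapped, whereas in Chiifu all V40T10 libraries were above all V40 libraries. LP08 was higher by 0.93 at V20 and 0.94 at V40 on the log2 scale (edgeR adjusted p 0.00665 and 0.00585), and at V40T10 the ranges of the cultivars overlapped. Bra008052 had means at V40T10 of 13.9 ± 6.52 CPM in LP08 and 17.0 ± 2.00 CPM in Chiifu, against 2.43 ± 0.660 and 1.74 ± 0.890 CPM at NV (SD, n = 3 each).

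For genes near 0 CPM at NV, adding 1 CPM hides much of the ratio, and the word slow holds less well for them. Bra017795 had 4, 7 and 31 counts at V1 and 0, 2 and 1 at NV in LP08, and 10, 17 and 16 counts at V1 and 1, 3 and 7 at NV in Chiifu. It was at 4.98, 6.97 and 4.71 CPM at V40T10 in LP08 and 2.00, 2.83 and 1.56 CPM in Chiifu. Its R at V1 was 0.69 in LP08, just inside the limit, although all V1 libraries had more counts than any NV library in both cultivars. In Chiifu the V1 libraries of Bra031769 were likewise all above its NV libraries. The same held for Bra038962 and Bra022957 in LP08 and for Bra040759 in both cultivars. When 0.5 CPM was added in place of 1, Bra038962, Bra031769, Bra022957, Bra040759 and Bra017795 were among the genes that no longer met the rule. An order with all V1 libraries above all NV libraries also held for some genes well above 0 CPM at NV. In LP08 Bra033251 had 14.6, 16.8 and 14.5 CPM at V1 and 10.7, 10.8 and 10.1 at NV. Bra014955 had 18.0, 20.1 and 19.0 CPM at V1 and 14.4, 14.1 and 12.5 at NV in LP08. Bra021386 and Bra030568 had this order in LP08 too. The V1 mean lay below the NV mean for 11 of the selected genes in LP08 and for 13 in Chiifu.

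A pair of genes had no count in any LP08 NV library. Bra022957 also had none at NV or V1 in Chiifu, but it had 10, 10 and 10 counts at V1 in LP08. It was uneven later, with counts of 331, 27 and 39 at V20, 355, 17 and 194 at V40 and 16, 186 and 30 at V40T10 in LP08. The Chiifu counts were 0, 120 and 8 at V20, 340, 367 and 4 at V40 and 1, 19 and 218 at V40T10. In each later group of either cultivar 1 or 2 libraries held most of the counts, and the mean hides this. Against the limit of 3 counts over the NV group, its V40 mean was at least 180-fold higher in LP08 and at least 203-fold higher in Chiifu, and without LP08 V40 replicate 1 the LP08 bound was 103-fold. Bra040759 had 0 counts at NV, 5, 2 and 5 at V1 and 31, 23 and 19 at V40T10 in LP08. Its V40T10 mean there was at least 28.9-fold higher by the same limit. In Chiifu it had 6, 5 and 0 counts at NV, 12, 7 and 22 at V1 and 43, 40 and 43 at V40T10.

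One library decided the place of Bra009817. Its Chiifu NV libraries had 490, 545 and 0 counts, while every other library of the series had between 150 and 2679. Without Chiifu NV replicate 3 this gene and Bra000596 no longer met the rule, and 42 genes did, 28 of them among the 30. The values nearest the edge of the rule were those of Bra017795, with R of 0.69 at V1 in LP08, and Bra031769, with 0.68 at V1 in Chiifu. Just outside lay Bra012238, with R of 0.98 at V40 in LP08, and Bra019747, with 0.73 at V1 in LP08. A group of 10 genes kept their place without each library in turn and under 5 other settings of the rule, among them Bra011755, Bra026937, Bra018568, Bra002692 and Bra014955.

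**Figure D2:**
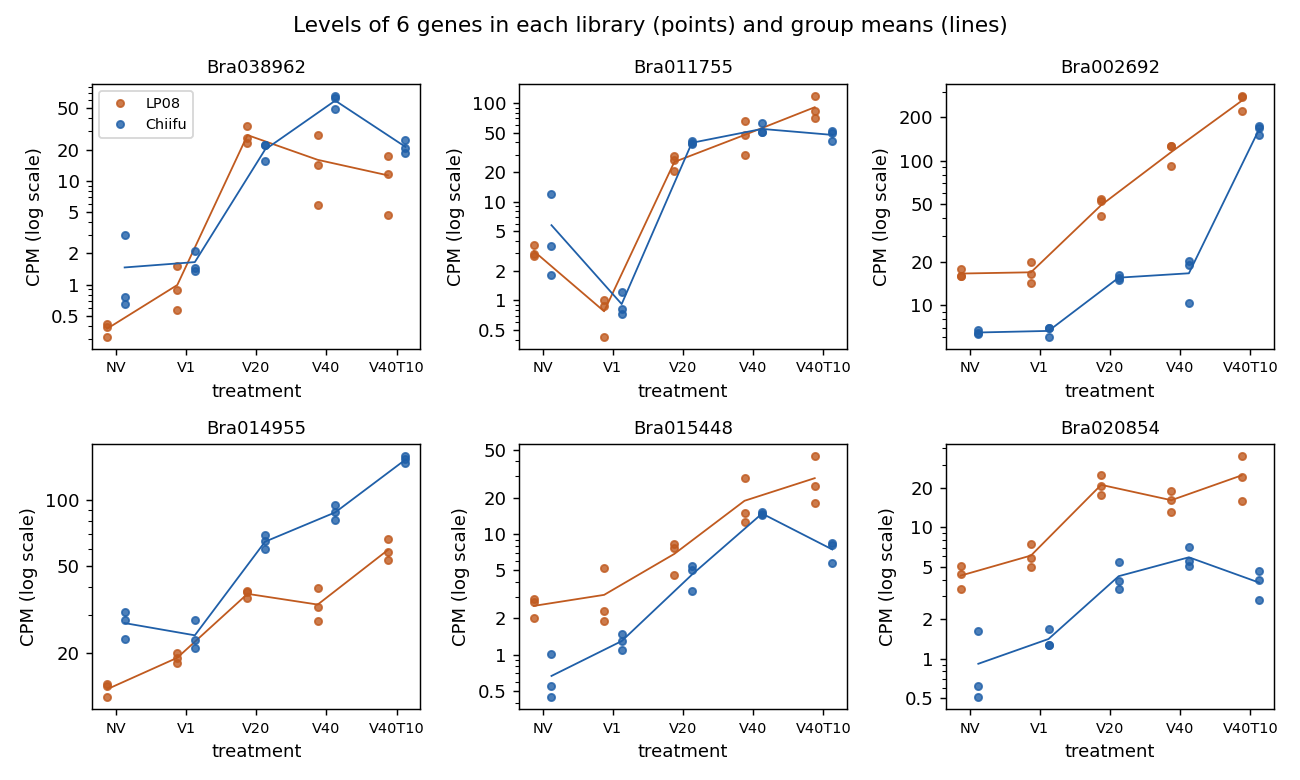
CPM on a log scale of 6 of the genes in every library (points, 3 per group) with group means joined by lines, LP08 in orange and Chiifu in blue, from NV to V40T10. Bra002692 and Bra020854 lie higher in LP08 throughout and Bra014955 in Chiifu, Bra011755 is lowest at V1 in both, and Bra015448 and Bra038962 have their highest Chiifu mean at V40.

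The time of the highest mean is given as a description, with no share over all genes to set beside it. In LP08 the highest mean fell at V20 for 6 genes, at V40 for 8 and at V40T10 for 16. In Chiifu these numbers were 3, 13 and 14, and 12 genes had it at the same time in both cultivars. Some means lay close together, such as 4.07, 4.38 and 4.30 CPM for Bra023512 at V20, V40 and V40T10 in Chiifu. No difference between the cultivars is therefore read from these counts. Whether levels still moved between 20 and 40 days of cold was tested with edgeR, a comparison that the rule did not use, although it required both levels to be high. In LP08 2 genes were higher at V40 than at V20, Bra002692 and Bra015448, where 1.12% of all genes tested were. In Chiifu 1 was higher, Bra015448, where 0.157% of all were, and none of the 30 was called lower in either cultivar, where 0.926% and 0.104% of all were. Bra015448 was higher in both cultivars, where 0.0488% of all genes were, and 0 were lower in both, against 0.0279%. The median log2 change from V20 to V40 was 0.12 in LP08 and 0.44 in Chiifu, with 0.00 over all genes in each. Without Chiifu NV replicate 3, 4 genes were called higher in LP08 and 2 in Chiifu, where 2.56% and 0.92% of all genes then were.

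Bra015448 rose between 20 and 40 days of cold in both cultivars. In LP08 it had 2.88, 2.73 and 2.02 CPM at NV, 5.19, 2.30 and 1.91 at V1, 7.68, 4.54 and 8.30 at V20, 15.0, 12.5 and 29.1 at V40 and 25.1, 43.9 and 18.0 at V40T10. In Chiifu it had 1.01, 0.553 and 0.443 CPM at NV, 1.09, 1.5 and 1.31 at V1, 3.36, 4.99 and 5.45 at V20, 15.2, 14.8 and 14.3 at V40 and 5.72, 8.45 and 8.17 at V40T10. All V40 libraries lay above all V20 libraries in each cultivar. The log2 change was 1.46 in LP08 (SE 0.34, edgeR adjusted p 0.0226) and 1.67 in Chiifu (SE 0.35, adjusted p 0.0339). The Chiifu call was lost without any 1 of the 6 libraries compared, with adjusted p-values of 0.0891 to 0.193, and the LP08 one without V20 replicate 1, V20 replicate 2 or V40 replicate 3 (0.0570, 0.155 and 0.215) or in a fit of only the groups compared (0.0905).

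Bra002692 was called higher at V40 than at V20 in LP08 alone, and a difference of this step between the cultivars was not tested. Its LP08 libraries had 15.9, 16.0 and 17.9 CPM at NV, 19.9, 14.4 and 16.5 at V1, 52.8, 41.2 and 54.2 at V20, 91.6, 127 and 127 at V40 and 282, 275 and 223 at V40T10. The Chiifu libraries had 6.47, 6.31 and 6.71 CPM at NV, 6.08, 6.94 and 6.96 at V1, 15.5, 14.9 and 16.3 at V20, 20.4, 19.1 and 10.5 at V40 and 169, 152 and 175 at V40T10. In LP08 each group after V1 lay above the one before it, whereas in Chiifu the V20 and V40 libraries overlapped and the V40T10 libraries were far above both. The V40 level in LP08 was 2.33-fold that at V20 (log2 change 1.22, SE 0.18, edgeR adjusted p 0.000714), and the log2 change in Chiifu was 0.10 (adjusted p 0.931).

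What happened to the raised levels on return to warmth was tested by setting V40T10 against V40, a step whose direction the rule left free while it required both levels to be high. In LP08 7 of the 30 genes rose and 1 fell, where 24.6% and 25.1% of all genes tested did. In Chiifu 8 rose and 3 fell, against 24.2% and 22.4% of all. The median log2 change was 0.24 in LP08 and -0.03 in Chiifu, with 0.00 and 0.05 over all genes. The 4 genes that rose in both cultivars were Bra002692, Bra014599, Bra014955 and Bra035137, where 11.1% of all genes did so. None of the 30 fell in both cultivars, where 11.6% of all did. The 15 called in neither have no share over all genes set beside them, so nothing is read from that number. No gene of the 30 was called in opposite directions, where 2.56% of all rose in LP08 and fell in Chiifu and 3.37% did the reverse. The shares that rose are near the background. Without LP08 V40T10 replicate 3, 11 genes rose in LP08, where 22.9% of all then did, and without Chiifu NV replicate 3, 5 fell in Chiifu, where 26.7% of all then did. Few could fall far, since a gene back near its NV level would have missed the limit at V40T10.

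**Figure D3:**
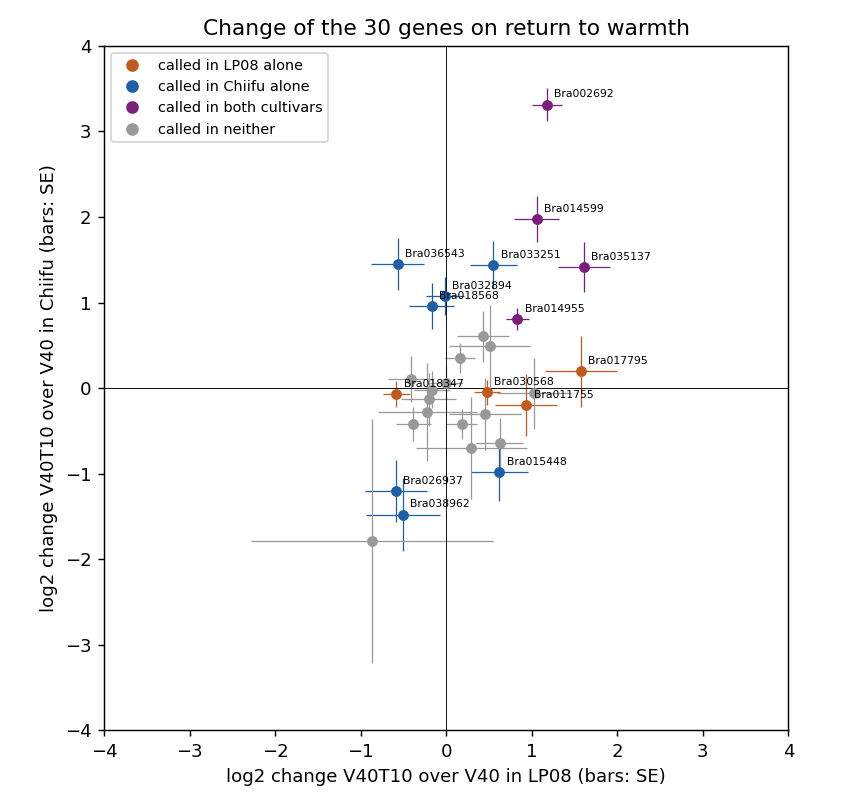
Log2 change from V40 to V40T10 of the 30 genes in LP08 (horizontal) and Chiifu (vertical), with SE bars and colours for an edgeR adjusted p below 0.05 in each cultivar. The 4 genes called in both lie in the upper right, at 0.83 to 1.61 in LP08 and 0.81 to 3.31 in Chiifu, and no gene is called in opposite directions.

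In Bra002692 the warm step was the greatest of the 30 in Chiifu, 9.95-fold on the fitted scale (log2 change 3.31, SE 0.19, edgeR adjusted p 1.97e-12). In LP08 it was 2.26-fold (log2 change 1.18, SE 0.18, adjusted p 6.58e-06). Bra035137 had 5, 4 and 6 counts at NV in LP08 and 12, 18 and 20 in Chiifu. It had 9.84, 10.5 and 9.87 CPM at V40T10 and 4.03, 2.55 and 3.30 at V40 in LP08. In Chiifu it had 13.7, 13.2 and 11.4 CPM at V40T10 and 4.40, 5.90 and 4.09 at V40. The libraries of the 2 times did not overlap in either cultivar, and the log2 changes were 1.61 in LP08 (SE 0.30, adjusted p 9.76e-05) and 1.42 in Chiifu (SE 0.29, adjusted p 0.000317).

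Bra014599 went the same way, with 13.7, 12.3 and 14.4 CPM at V40T10 and 7.35, 5.79 and 6.35 at V40 in LP08. The Chiifu values were 12.7, 11.2 and 12.2 CPM at V40T10 and 2.76, 4.46 and 1.97 at V40. Its rise was 1.06 on the log2 scale in LP08 (SE 0.26, edgeR adjusted p 0.00160) and 1.98 in Chiifu (SE 0.27, adjusted p 1.89e-06). Bra014955 rose by nearly the same factor in both cultivars, from different levels: it had 57.8, 66.6 and 53.3 CPM at V40T10 and 32.3, 27.9 and 39.8 at V40 in LP08, and 154, 159 and 148 CPM at V40T10 and 88.0, 81.2 and 94.8 at V40 in Chiifu. The log2 changes were 0.83 in LP08 (SE 0.13, adjusted p 1.37e-05) and 0.81 in Chiifu (SE 0.13, adjusted p 2.13e-05). The rises of these 4 genes passed the threshold in both cultivars without each library in turn.

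Further rises were called in 1 cultivar. In LP08 they were those of Bra017795 (log2 change 1.58), Bra011755 (0.94) and Bra030568 (0.48). The call of Bra011755 was lost without LP08 V40 replicate 1, V40 replicate 2 or V40T10 replicate 2 (edgeR adjusted p 0.0783, 0.17 and 0.159), and that of Bra030568 without V40 replicate 2 or V40T10 replicate 2 (0.0703 and 0.0733). In Chiifu the log2 changes were 1.45 for Bra036543, 1.44 for Bra033251, 1.08 for Bra032894 and 0.96 for Bra018568. A call in 1 cultivar alone is no evidence of a difference between them, which was tested separately.

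The genes that fell were still above NV, which the rule required at V40T10. In LP08 Bra018347 had 42.5, 29.0 and 35.7 CPM at V40T10 and 57.2, 51.8 and 52.0 at V40, against 14.6, 13.9 and 14.6 at NV, and its log2 level fell by 0.58 (SE 0.15, edgeR adjusted p 0.00266). In Chiifu Bra038962 fell by 1.48 (SE 0.42, adjusted p 0.00582), Bra026937 fell by 1.20 (adjusted p 0.00861) and Bra015448 fell by 0.98 (adjusted p 0.0202). Without Chiifu V40 replicate 2 the adjusted p of Bra026937 was 0.0665, and without Chiifu V40T10 replicate 1 that of Bra015448 was 0.0857.

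The step into warmth differed between the cultivars for 6 of the 30 genes, tested as the difference of the log2 changes, LP08 minus Chiifu. It was higher in LP08 for 2, where 14.2% of all genes tested were, and lower in LP08 for 4, where 16.2% of all were. The rule asked for high levels at both times in both cultivars, and these shares come from genes not chosen that way. Leaving out Chiifu NV replicate 3 made the first count 6, beside 20.1% of all genes, and leaving out LP08 V40T10 replicate 2 made it 0, beside 13% of all. For Bra002692 the difference was -2.14 (SE 0.25, edgeR adjusted p 6.69e-07). Bra036543 had 5.65, 3.49 and 4.66 CPM at V40T10 and 5.04, 7.04 and 8.50 at V40 in LP08, and 11.2, 11.1 and 13.8 CPM at V40T10 and 5.82, 4.05 and 3.42 at V40 in Chiifu. Its Chiifu libraries were separate between the times and its LP08 libraries overlapped, and the difference was -2.02 (SE 0.43, adjusted p 0.000796).

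Bra015448 showed the opposite, a difference of 1.60 (SE 0.47, edgeR adjusted p 0.0114), with the fall in Chiifu and a log2 change of 0.62 in LP08 that was not called (adjusted p 0.125). Without LP08 V40T10 replicate 2 the difference was 1.20 with an adjusted p of 0.0567. Bra020854 differed by 1.27 (adjusted p 0.0179), from log2 changes of 0.63 in LP08 and -0.64 in Chiifu that were not called on their own. This call was lost without Chiifu V40 replicate 3, LP08 V40 replicate 2 or LP08 V40T10 replicate 2 (adjusted p 0.0571, 0.0521 and 0.0739). Bra032894 differed by -1.09 (adjusted p 0.00854) and Bra018568 by -1.13 (adjusted p 0.0232), the second not without V40 replicate 3 or V40T10 replicate 3 of either cultivar (0.0502 to 0.0883).

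Levels were also compared between the cultivars at each treatment, which the rule, built on ratios within a cultivar, did not use. It did ask for the same rises in both cultivars, and the shares over all genes come from genes not chosen that way. At NV 7 of the 30 genes were higher in LP08 than in Chiifu and 5 lower, against 20.8% and 24.3% of all genes tested. At V1 they were 7 and 3 (21.7% and 21.4% of all), at V20 8 and 1 (19.9% and 21.9%), at V40 7 and 3 (20.1% and 22.2%), and at V40T10 8 and 5 (26.9% and 31.8%). The NV calls depended on the method: when limma's voom weights let each group have its own spread, 0 of the 30 were called higher at NV and 1 lower, where 7.98% and 11.4% of all genes then were. With these weights the calls at NV of Bra020854, Bra015448, Bra038962 and Bra035137 were lost (adjusted p 0.212, 0.498, 0.671 and 0.319). Those of Bra002692 and Bra033251 were lost as well (adjusted p 0.0760 and 0.181). Over the 5 treatments 9 genes were called at none, where 16.1% of all were, 2 were higher in LP08 at all 5, against 6.68%, and 1 was lower at all 5, against 9.85%. The 2 higher at all 5, Bra002692 and Bra020854, did not keep their NV calls with voom weights.

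**Figure D4:**
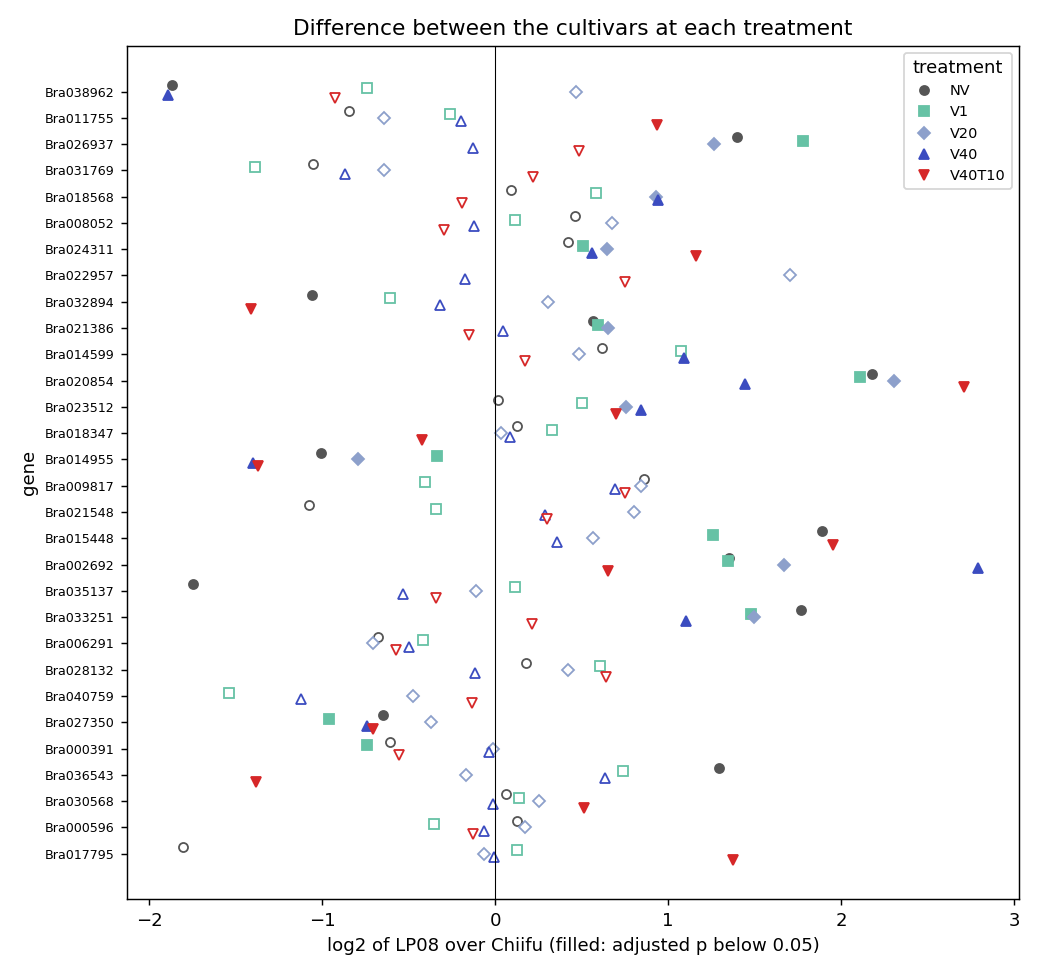
Log2 difference of LP08 over Chiifu for each of the 30 genes (down the page) at NV, V1, V20, V40 and V40T10 (symbols), filled where the edgeR adjusted p was below 0.05; a gene with no count in any library of 1 of the groups is left out at that treatment. Bra020854 and Bra002692 have 5 filled symbols right of 0, Bra014955 has 5 left of 0, and Bra036543 has filled symbols on both sides.

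Bra020854 had the greatest called difference of the 30 at both NV and V40T10. Its LP08 libraries had 4.39, 5.09 and 3.39 CPM at NV, 7.49, 4.99 and 5.81 at V1, 25, 17.7 and 20.6 at V20, 16.1, 13.2 and 19.1 at V40 and 24.1, 34.7 and 15.9 at V40T10. Those of Chiifu had 0.623, 1.61 and 0.507 CPM at NV, 1.27, 1.27 and 1.69 at V1, 3.36, 3.93 and 5.45 at V20, 5.05, 5.58 and 7.12 at V40 and 4.63, 3.99 and 2.78 at V40T10. The cultivars did not overlap at any treatment. The log2 difference was 2.18 at NV (SE 0.35, edgeR adjusted p 1.80e-05; 2.89 without Chiifu NV replicate 2), 2.11 at V1, 2.30 at V20, 1.45 at V40 and 2.71 at V40T10 (SE 0.30, adjusted p 2.92e-08).

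Bra002692 was higher in LP08 by 1.35 at NV, 1.35 at V1, 1.67 at V20 and 2.79 at V40 on the log2 scale, and by 0.65 at V40T10 (SE 0.18, edgeR adjusted p 0.00264). The log2 difference was greatest at V40 and least at V40T10. Bra033251, chosen after its values were seen, was higher in LP08 at the first 4 treatments, by 1.77 at NV, 1.48 at V1 and 1.10 at V40, and at V40T10 it stood at 36.2, 36.1 and 35.8 CPM in LP08 and 26.0, 28.5 and 38.9 CPM in Chiifu, which overlap. Bra015448 was higher in LP08 by 1.89 at NV (adjusted p 0.00178) and 1.95 at V40T10 (adjusted p 2.98e-05). The log2 differences at V20 and V40 were 0.57 and 0.35 (adjusted p 0.207 and 0.416).

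Bra014955 was the one gene lower in LP08 throughout. At NV it had 14.4, 14.1 and 12.5 CPM in LP08 and 23.1, 30.7 and 28.4 CPM in Chiifu, and at V20 38.1, 38.3 and 35.5 CPM in LP08 and 59.8, 64.9 and 69.1 CPM in Chiifu. Its log2 difference was -1.01 at NV (SE 0.14, edgeR adjusted p 1.48e-06), -1.40 at V40 and -1.37 at V40T10 (SE 0.13, adjusted p 4.02e-09). At V1 it was -0.34 with an adjusted p of 0.0452, and that call was lost without any of 8 libraries (adjusted p up to 0.275, without Chiifu V1 replicate 3). Bra027350, also chosen after its values were seen, was lower in LP08 at NV, V1, V40 and V40T10, with log2 differences of -0.96 to -0.65. Its NV call was lost without Chiifu NV replicate 2 or LP08 NV replicate 3 (adjusted p 0.0553 and 0.0523), in a fit of only the NV groups (0.0717) and with voom weights (0.251).

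The other named genes differed at V40T10 or NV. At V40T10 Bra032894 had 26.7, 40.4 and 24.1 CPM in LP08 and 86.9, 90.8 and 64.8 CPM in Chiifu, a log2 difference of -1.41 (edgeR adjusted p 7.09e-06). Bra036543 was higher in LP08 at NV, by 1.29 (adjusted p 0.0180), and lower at V40T10, with a log2 difference of -1.38 (adjusted p 0.000427). The first of these was lost without LP08 NV replicate 3 or Chiifu NV replicate 3 (0.139 and 0.0779), in a fit of only the NV groups (0.102) and with voom weights (0.574). Bra017795 was higher in LP08 at V40T10 by 1.37 (adjusted p 0.00588). At NV Bra035137 was lower in LP08 by a log2 difference of -1.75 (adjusted p 0.00416), from 5, 4 and 6 counts in LP08 and 12, 18 and 20 in Chiifu. Bra038962 was lower in LP08 at NV as well, with a log2 difference of -1.87 (adjusted p 0.0402), a difference that was -0.90 without Chiifu NV replicate 3 and no longer called then or without any 1 of the LP08 NV libraries. At V40 its log2 difference was -1.89, and -2.57 without LP08 V40 replicate 3.

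Some libraries held more of these genes' extremes than their share. Among the LP08 V40T10 libraries, replicate 3 was the lowest of the 3 for 21 of the 30 genes and replicate 2 the highest for 19, while over all Bra genes tested replicate 3 was lowest for 31.5% and replicate 2 highest for 34.4%. In LP08 V40, replicate 2 was the lowest for 19 genes, against 35.5% of all. The number of the 30 genes at R of 1 or more in a single library, set against the NV mean of its cultivar, was 25 to 30 in the V20, V40 and V40T10 libraries of LP08 and 23 to 30 in those of Chiifu. In V1 libraries it was 0 or 1. The rule chose the genes on the means of these same libraries, so nothing is read from these numbers. The part of these libraries in the levels of the 30 genes was not tested.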

How the data were processed

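RNA of whole plants was sequenced in 30 libraries, 3 for each of 5 treatments in LP08 and Chiifu. The authors deposited whole-number read counts per gene, 1 table per library. FastQC, TopHat2, HTSeq and edgeR were used, per the submitters' processing notes. Build, annotation and strand setting were not given in the sources used here, so reads of near-identical copies and antisense partners may be split or merged. Rows that name no gene were left out: reads on no feature made up 6.91 to 11.6% and reads not unique 2.67 to 7.29% of a library.

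Levels are CPM with edgeR's TMM factors over Bra rows. Tests used edgeR 4.0.16 (quasi-likelihood, in R 4.3.3) on the counts of all 42186 genes, 28712 after the filter on low counts, with 1 mean for each of the 10 groups. P-values were adjusted by Benjamini-Hochberg over all genes tested, and a gene was called below 0.05. The fitted fold changes carry edgeR's default prior count in place of the added CPM. Alternatives used DESeq2 1.42.0, limma 3.58.1 and the settings in the closing section. Ratios of means over NV without each library in turn were added after seeing the data. Replicate counts differed by more than sampling noise in every group, so no library was merged with another.

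The members and lists were chosen with earlier results of these data known. Genes named are the 6 with the highest smallest R, the greatest called changes of each comparison with at least 10 counts in every library of the higher group, and the edge of the rule, with any other named in small sets of calls or chosen after its values were seen. Lists of flowering, cold, and sugar and senescence genes could not be used, since the reference table (RefSeq, CAAS_Brap_v3.01) matched 0 of the 30 identifiers. Gene lengths and sequences were not used here.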

Additional observations from a re-analysis of the deposited data

Results flagged for a closer look

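The step from V40 to V40T10 differed between the cultivars, by a test of the difference itself, for 6 of the 30 genes (edgeR adjusted p below 0.05). The log2 change in LP08 minus that in Chiifu was 1.60 for Bra015448 and 1.27 for Bra020854. It was -1.09 for Bra032894, -1.13 for Bra018568, -2.02 for Bra036543 and -2.14 for Bra002692. Over all genes tested 14.2% were higher and 16.2% lower by this test. The differences of Bra002692, Bra036543 and Bra032894 passed the threshold without each library in turn, whereas those of Bra015448, Bra020854 and Bra018568 did not.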

How the results depend on the processing

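Of 82 calls among the 30 genes, 0 turned direction under the settings run, 60 passed the threshold without each library in turn, 66 under every other setting and 54 under both. The cause of the changes below was not tested.

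Counts that moved by over 1.5 times are given in turn, with the share of all genes under the same setting in parentheses. DESeq2 called 2 genes higher at V40 than V20 in Chiifu (0.829%), 5 lower in LP08 than Chiifu at V1 (22.2%) and 5 with a higher step into warmth in LP08 (16.7%). Voom weights per group called 4 higher at V40 than V20 in LP08 (2.42%) and 6 in Chiifu (3.61%), 6 lower at V40T10 than V40 in Chiifu (30.2%), 0 higher and 1 lower in LP08 at NV (7.98% and 11.4%), 4 lower at V20 (27.6%), and 6 higher and 7 lower for the difference of the steps (19.4% and 20.7%). Fits of only the groups compared called 1 higher at V40 than V20 in LP08 (0.638%), 7 in Chiifu (2.95%) and 0 in both, and 7 lower at V40T10 in Chiifu (32.5%). They called 4 higher and 2 lower in LP08 at NV (7.6% and 12.2%), 5 lower at V1 (26.3%), 3 at V20 (27.2%), 6 at V40 (25.8%) and 8 at V40T10 (34.8%), and 6 higher for the difference (21%).

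Counts without each library in turn are given as ranges, with the share of all genes at a setting that gave each end. Genes higher at V40 than V20 numbered 1 to 4 in LP08 (0.716% without LP08 V20 replicate 1, 2.56% without Chiifu NV replicate 3). In Chiifu they numbered 0 to 2 (0.0445% without Chiifu V20 replicate 1, 0.92% without Chiifu NV replicate 3). In both cultivars they numbered 0 to 1, with no share by setting. At V40T10 against V40, 5 to 11 were higher in LP08 (20% without LP08 V40 replicate 2, 22.9% without LP08 V40T10 replicate 3). In Chiifu 2 to 5 were lower (19.3% without Chiifu V40 replicate 2, 26.7% without Chiifu NV replicate 3). In LP08 against Chiifu, 3 to 8 were lower at NV (22.5% without LP08 NV replicate 3, 26.1% without Chiifu NV replicate 1). At V1, 4 to 8 were higher (18.1% without Chiifu V1 replicate 1, 22.6% without Chiifu NV replicate 2). Those lower at V1 numbered 1 to 5 (18.6% without Chiifu V1 replicate 3, 26.1% without Chiifu NV replicate 3). Those lower at V20 numbered 1 to 2 (22.9% without Chiifu NV replicate 1, 26.3% without Chiifu NV replicate 3). The difference of the steps was higher for 0 to 6 (13% without LP08 V40T10 replicate 2, 20.1% without Chiifu NV replicate 3).

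With the replicate block 0 genes were higher at V40 than V20 in Chiifu (0.125% of all) and 0 in both (Bra015448, edgeR adjusted p 0.0559). Same-numbered libraries did not deviate together (correlations -0.287 to 0.201, with 0 of 9 comparisons over 0.1 in every pair), so the numbers were not taken to pair them.

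The rule gave 30 genes with RLE factors and with TMM over all rows, 35 when 0.5 CPM was added (24 of the 30), 20 when 2 CPM was added (19), 29 with medians (22), and 26 to 42 without each library in turn. Genes with few counts at NV are the ones that depth limits.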
